A study of Mus musculus with 14 samples.

Results

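Mpo, Elane, Prtn3, Ctsg, Cebpa and Rac2 were followed in single cells of the mouse aorta and yolk sac and in whole intra-aortic haematopoietic clusters (wIAHCs) at embryonic days E10 and E11. These 6 genes of the early granulocyte and monocyte programme were picked by symbol out of the 19425 genes of the wIAHC table. All 6 had a row in both single-cell tables, which held 19322 genes at E10 and 19424 at E11. Transcripts had been counted with CEL-Seq, which reads the 3′ end of each mRNA and tells molecules apart by a short random tag, the unique molecular identifier (UMI).

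The E10 table held 546 cells, all down-sampled to 3000 transcripts, and the E11 one had 575 cells, all at 5000. Endothelial cells without (non-HE) and with haemogenic potential (HE), and cells in endothelial-to-haematopoietic transition (EHT), came from the aorta-gonad-mesonephros (AGM) region of ICR embryos labelled Gfi+/tomato Gfi1b+/GFP, which carry a fluorescent reporter in place of 1 allele each of Gfi1 and Gfi1b. They had been sorted as Cdh5+ cells that were Gfi1- Gfi1b- c-kit- (non-HE), Gfi1+ Gfi1b- c-kit- (HE) or Gfi1+ Gfi1b- c-kit+ (EHT). Wild-type C57BL/6 embryos gave all other cells. These were IAHC cells sorted as c-kit+CD31+ at both stages and also as c-kit+ at E11, E11 precursors of haematopoietic stem cells (pre-HSCs; c-kit+Cdh5+, type I and type II by CD45), and c-kit+ haematopoietic stem and progenitor cells of the yolk sac (YS HSPCs). The paper describes the IAHC cells it analysed as purified in silico on Gpr56 transcripts. The deposited IAHC cells may already have been selected in this way. E10 embryos had 28 to 32 somite pairs and E11 embryos more than 40. Strain and reporter therefore changed together with population between EHT cells and IAHC cells or pre-HSCs. Their parts in any difference between those populations cannot be told apart. The E10 non-HE cells carried an early E11 name in the table and were used at their labelled stage. Names of other reporter populations also differed within a stage, with late E10 for only some E10 EHT sets and late E11 for only some E11 non-HE sets. Each population at a stage was 1 sample, with both pre-HSC types in 1, so no test was made between populations and all intervals (95%) cover counting error only. The 7 haematopoietic markers (Ptprc, Runx1, Kit, Gpr56, Myb, Cd34 and Spn) summed to 8.50 transcripts per cell in E10 EHT cells, 11.3 in E10 IAHC cells and 6.11 in E10 YS HSPCs. The 10 endothelial markers summed to 8.48, 5.38 and 0.447 in the same populations, and to 28.2 in E10 HE cells.

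Granulocytes and monocytes carry azurophil granules, which are filled at the progenitor stage. Myeloperoxidase (Mpo) makes hypochlorous acid in them, and neutrophil elastase (Elane), proteinase 3 (Prtn3) and cathepsin G (Ctsg) are the serine proteases stored beside it. Cebpa encodes C/EBPα, a transcription factor that commits progenitors to this lineage, and Rac2 encodes the haematopoietic GTPase that drives migration and helps to activate the NADPH oxidase. In the early embryo the yolk sac is known as a source of erythro-myeloid progenitors, whereas IAHCs hold the precursors of the stem cells.

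Prtn3 and Elane are neighbours. In RefSeq on GRCm38.p6, Prtn3 spans chr10:79879667-79883174 and Elane chr10:79886312-79888216, both on the plus strand, and 3137 bases separate the end of the first from the start of the second. Mpo lies at chr11:87793784-87804412, also on the plus strand, and its first GENCODE vM21 transcript has 14 exons against 5 for each protease gene. Ctsg lies at chr14:56099885-56102574 and Rac2 at chr15:78559169-78572783, both on the minus strand. Cebpa, with a single exon, lies at chr7:35119293-35121928 on the plus strand.

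The promoters of the 2 granule genes that were detected and of the undetected neighbour are shown from RefSeq (GRCm38.p6), 5′ to 3′, from 250 bases before to 50 bases after the start site, because Prtn3 and Elane lie side by side and only one of them was detected. Capitals mark matches, on either strand, to the PU.1 letters GAGGAA or the MYB letters CAACNG.
Mpo (chr11:87793534-87793833, plus strand): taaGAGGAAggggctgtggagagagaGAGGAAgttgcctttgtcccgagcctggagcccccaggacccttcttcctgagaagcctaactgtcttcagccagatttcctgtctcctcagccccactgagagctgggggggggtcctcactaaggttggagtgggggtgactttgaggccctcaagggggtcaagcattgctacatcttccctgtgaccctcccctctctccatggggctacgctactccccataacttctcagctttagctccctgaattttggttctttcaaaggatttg
Prtn3 (chr10:79879417-79879716, plus strand): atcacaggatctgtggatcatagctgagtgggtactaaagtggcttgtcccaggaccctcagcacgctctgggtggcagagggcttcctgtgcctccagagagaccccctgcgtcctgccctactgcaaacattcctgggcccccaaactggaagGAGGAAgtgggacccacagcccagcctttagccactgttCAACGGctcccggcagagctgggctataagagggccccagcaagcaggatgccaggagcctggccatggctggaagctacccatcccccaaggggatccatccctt
Elane (chr10:79886062-79886361, plus strand): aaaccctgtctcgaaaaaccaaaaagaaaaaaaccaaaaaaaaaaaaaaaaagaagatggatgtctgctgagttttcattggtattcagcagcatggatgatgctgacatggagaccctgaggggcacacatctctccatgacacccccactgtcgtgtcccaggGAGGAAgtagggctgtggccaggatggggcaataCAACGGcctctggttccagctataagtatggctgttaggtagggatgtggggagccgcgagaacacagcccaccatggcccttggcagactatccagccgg
The Mpo promoter held GAGGAA at positions -247 to -242 and -224 to -219 from the start site. The Prtn3 promoter held GAGGAA at -95 to -90 and CAACGG at -56 to -51, and the Elane promoter held the same letters at -85 to -80 and -51 to -46. The Ctsg promoter had 4 matches and that of Cebpa 1. Neither TGTGGT (RUNX) nor TTGCNNAA (C/EBP) was found in the Mpo, Prtn3 and Elane windows. Of 32851 promoters of this length, 28.3% held GAGGAA, 35% CAACNG, 16.8% TGTGGT and 10.8% TTGCNNAA on either strand, and no match overlapped another. These matches describe the letters only. The table held promoters for 5 of the 6 genes and none for Rac2.

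Elane and Ctsg had 0 transcripts in all 1121 single cells. A count of 0 allows up to 0.268% of cells with a transcript, which limits detection at these depths and not expression. They shared this with 26.1% of all genes in the E10 table and 24.4% in the E11 table. Cebpa had 3 transcripts, 1 each in an E10 non-HE cell, an E10 YS HSPC and an E11 YS HSPC. The gene that lies next to Elane behaved differently. Prtn3 had 527 transcripts in 314 cells, Mpo 676 in 312 cells and Rac2 1003 in 446 cells, and the descriptions that follow are of these 3 genes.

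Mpo was at its highest in YS HSPCs. Per 10000 transcripts it reached 6.05 (5.33 to 6.84) in 141 E10 YS HSPCs and 3.70 (2.95 to 4.57) in 46 E11 YS HSPCs. The intervals of these 2 did not overlap, nor did that of E11 YS HSPCs with the next population in the order, E10 IAHC cells at 2.0 (1.4 to 2.6, 73 cells). E10 IAHC cells, E11 IAHC cells sorted as c-kit+ (1.7, 1.3 to 2.1, 89 cells) and type II pre-HSCs (1.7, 1.2 to 2.2, 55 cells) had overlapping intervals. E11 IAHC cells sorted as c-kit+CD31+ had 1.00 (0.82 to 1.2, 201 cells), E10 EHT cells 0.768 (0.558 to 1.03, 191 cells) and type I pre-HSCs 0.548 (0.319 to 0.878, 62 cells). E11 EHT cells had 0.217 (0.0706 to 0.507, 46 cells) and E10 HE cells 0.136 (0.0371 to 0.348, 98 cells). From E11 c-kit+CD31+ IAHC cells downwards the intervals of neighbours overlapped. No Mpo transcript was seen in 43 E10 non-HE, 30 E11 non-HE and 46 E11 HE cells, where 0 cells allow shares of up to 6.98%, 10% and 6.52%.

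Prtn3 had a flatter order. The E10 YS HSPCs had 3.2 per 10000 transcripts (2.7 to 3.8), E10 IAHC cells 2.2 (1.7 to 3.0), E11 YS HSPCs 2.0 (1.5 to 2.7) and type II pre-HSCs 1.6 (1.2 to 2.2). The c-kit+CD31+ IAHC cells at E11 had 1.09 (0.900 to 1.32), type I pre-HSCs 1.06 (0.733 to 1.49) and c-kit+ IAHC cells 0.966 (0.699 to 1.30). EHT cells had 0.838 (0.618 to 1.11) at E10 and 0.826 (0.50 to 1.3) at E11. Every pair of neighbours in this order had overlapping intervals. No transcript of Prtn3 was found in non-HE and HE cells of either stage, where 0 of 98 E10 HE cells allow a share of up to 3.06%.

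Rac2 separated the populations into blocks. YS HSPCs had 7.02 (6.25 to 7.87) per 10000 transcripts at E10 and 5.4 (4.5 to 6.4) at E11. E11 c-kit+ IAHC cells (3.24, 2.73 to 3.81), type II pre-HSCs (3.05, 2.44 to 3.78), E10 IAHC cells (2.33, 1.73 to 3.06) and E11 c-kit+CD31+ IAHC cells (1.85, 1.59 to 2.14) followed, each overlapping its neighbour. E10 EHT cells (1.06, 0.81 to 1.4), E11 EHT cells (0.957, 0.599 to 1.45) and type I pre-HSCs (0.935, 0.627 to 1.34) had similar levels. E10 HE cells were at 0.136 (0.0371 to 0.348) and E10 non-HE cells at 0.0775 (0.00196 to 0.432), from 4 transcripts and 1 transcript. Between the blocks the intervals did not overlap.

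**Figure D1:**
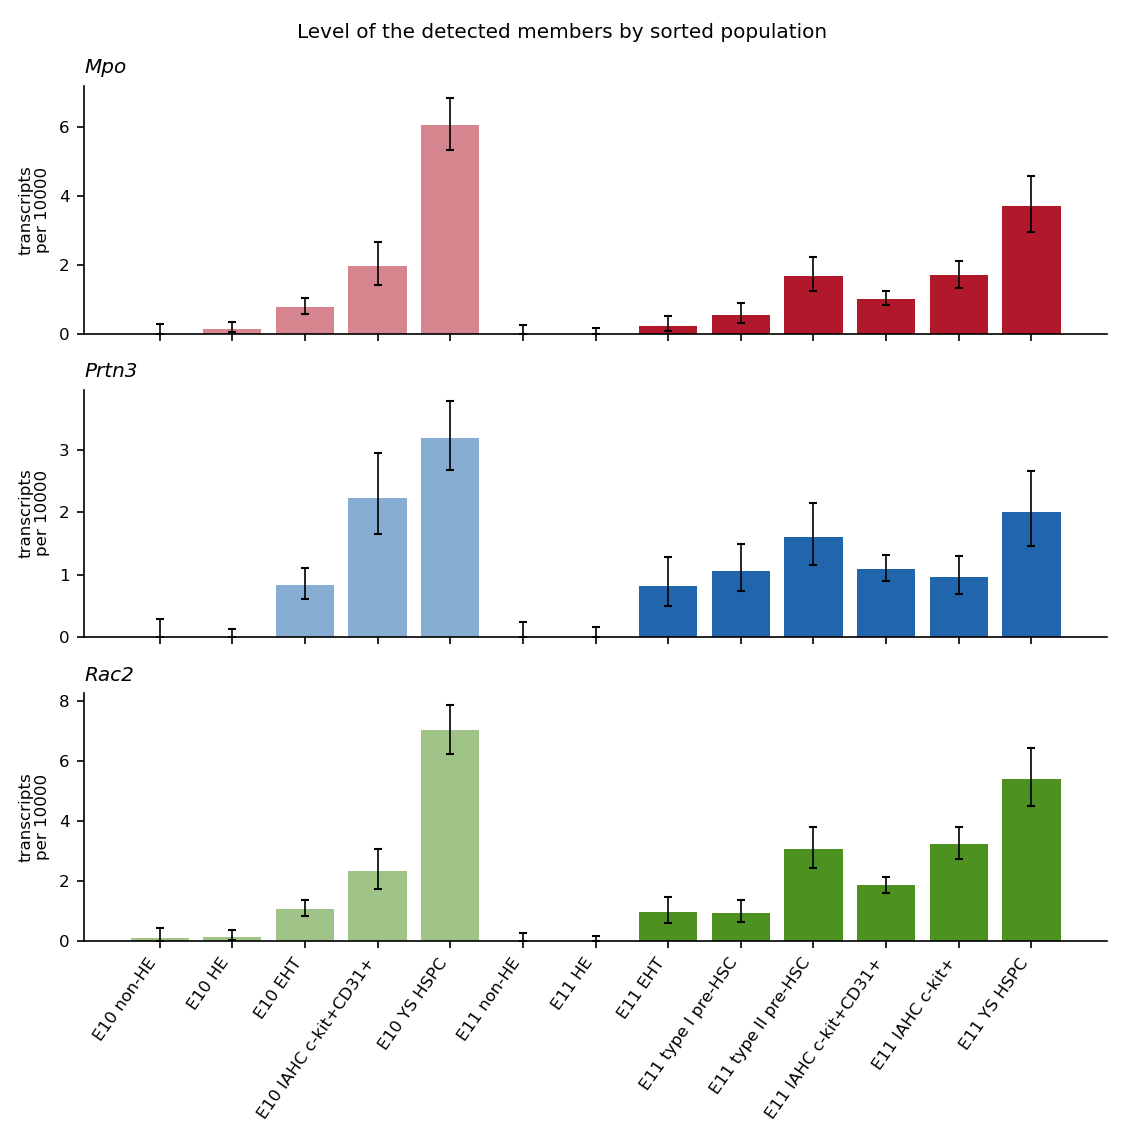
Level of Mpo, Prtn3 and Rac2 in each sorted population, in transcripts per 10000 (vertical axes), with E10 populations in light and E11 populations in dark bars. Error bars are exact Poisson 95% intervals and cover counting error only. YS HSPCs had the highest bar at E10 for all 3 genes, at 6.05, 3.19 and 7.02.

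The sorted sets of a population, told apart by column names, were close to each other for E10 YS HSPCs and less so for others. The names do not say whether these sets were separate sorts, plates or libraries. In the 2 sets of E10 YS HSPCs, Mpo had 1.75 and 1.87 transcripts per cell. In the 4 sets of E11 c-kit+CD31+ IAHC cells it ranged from 0.400 to 0.571. In the 5 sets of E11 c-kit+ IAHC cells it ranged from 0.375 to 3.43, the highest being a set of 7 cells that included 1 cell with 15 Mpo transcripts. Without that set, these cells had 1.2 Mpo transcripts per 10000. Among type II pre-HSCs, sets ranged from 0.5 to 1.25 for Mpo, 0.400 to 1.45 for Prtn3 and 1.28 to 1.95 for Rac2. Among type I pre-HSCs the ranges were 0.118 to 0.5, 0.294 to 0.900 and 0.382 to 0.600. The sets of the 2 pre-HSC types thus overlapped in range for Prtn3, met at 0.5 for Mpo and stood apart for Rac2.

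Transcripts of the granule genes were spread unevenly over YS HSPCs, and those of Rac2 more evenly. In E10 YS HSPCs, Mpo was detected in 77 of 141 cells and Prtn3 in 56, whereas Rac2 was detected in 115. The ratio of the variance to the mean over these cells was 4.8 for Mpo, 3.9 for Prtn3 and 1.4 for Rac2. At least 5 transcripts were seen in 20 cells for Mpo, 6 for Prtn3 and 11 for Rac2, with maxima of 15, 12 and 7. Mpo thus had the most cells with a high count although Rac2 was detected in more cells. In E10 IAHC cells the ratio was 1.7, 1.6 and 1.4, and no cell exceeded 6 transcripts of any of the 3.

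The share of cells with a transcript was compared among E11 populations. Among them, Mpo was detected in 65.2% (49.8% to 78.6%) of YS HSPCs, 47.3% (33.7% to 61.2%) of type II and 17.7% (9.20% to 29.5%) of type I pre-HSCs, and 8.70% (2.42% to 20.8%) of EHT cells. Prtn3 was detected in 45.7%, 45.5%, 33.9% and 30.4% of the same cells. Rac2 was detected in 80.4%, 67.3%, 30.6% and 23.9%. The type I to type II difference was thus wide for Mpo and Rac2 and narrow for Prtn3. Endothelial cells, assumed to lack these genes, were taken as background. In E10 non-HE cells it was 2.33% for Rac2 (1 of 43) and 0 for Mpo and Prtn3, in E10 HE cells 2.04% for Mpo and Rac2, and in E11 non-HE and HE cells 0 for all 3. All cells of a stage had the same number of transcripts.

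Successive populations were next compared. A gene was counted as higher if its mean per cell plus 0.1 was at least 2-fold that of the other population, provided that 1 of them had at least 0.1 transcripts of it per cell. From non-HE to HE no member reached the level needed at either stage, and 3.51% of 6743 genes at E10 and 6.4% of 8324 at E11 were higher in HE cells. From HE to EHT, 2.67% of 6770 genes at E10 and 6.77% of 8284 at E11 were higher, and all 3 detected members were among them at both stages. No support is drawn from this count, because a gene at 0 in HE cells that reached the level in EHT cells had to pass, which was so for Prtn3 at E10 and for all 3 at E11. With a pseudocount of 0.5 none of the 3 passed at either stage. At E10 the log2 ratio was 1.2 for Mpo, 1.8 for Prtn3 and 1.6 for Rac2. Without pseudocount, the Mpo ratio was 5.64 (2.05 to 21.6) and that of Rac2 7.82 (2.90 to 29.6), and Prtn3 was at least 8.21-fold higher than the 3 transcripts that a count of 0 over the HE cells allows. At E11, where HE cells had none of the 3, Mpo was at least 1.67-fold higher, from 5 transcripts, Prtn3 at least 6.33-fold and Rac2 at least 7.33-fold. A single E10 HE cell with transcripts of at least 4 of 10 macrophage markers held 3 of the 4 Mpo transcripts of that population. Without it, E10 HE cells had 0.0344 Mpo transcripts per 10000. Of the 46 E11 EHT cells, 3 also had at least 4 macrophage markers, and without all such cells 15 member differences were past 2-fold, as with them. The share of genes at least 2-fold lower was 3.49% at E10 and 5.2% at E11 from non-HE to HE, and 4.87% and 8.03% from HE to EHT, none of them a member. When the first of the 2 E10 HE sets (37 cells, none with Mpo) was left out, the log2 ratio of Mpo was 0.997, just below the limit.

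From EHT to c-kit+CD31+ IAHC cells, Mpo passed at both stages. At E10 the log2 ratio was 1.06 for Mpo, 1.13 for Prtn3 and 0.93 for Rac2, so 2 of 3 members passed, against 1.7% of 6429 genes. The ratios without pseudocount were 2.6 (1.6 to 4.0), 2.7 (1.8 to 4.1) and 2.2 (1.5 to 3.2). Mpo and Rac2 lay close to the limit. Without the second set of EHT cells (40 cells) Mpo was at 0.94, and without the third (87 cells) Rac2 was at 1.04. At E11, Mpo had a log2 ratio of 1.53 (4.62-fold, 1.92 to 14.5), while Prtn3 had 0.34 and Rac2 0.83, so 1 of 3 passed, against 4.43% of 7989 genes. No member was 2-fold lower, against 4.78% of genes at E10 and 8.9% at E11. The IAHC and EHT cells differed in strain and reporter, as given above.

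Between the pre-HSC types, Mpo and Rac2 were past 2-fold, Prtn3 was not, and Elane, Ctsg and Cebpa had 0 transcripts in both. No member passed 2-fold between type I pre-HSCs and E11 EHT cells, where 3.32% of 7897 genes were higher and 8.8% lower. These populations differed in strain and reporter too. The log2 ratios were 0.84 for Mpo, 0.30 for Prtn3 and -0.03 for Rac2. From type I to type II, Mpo (log2 ratio 1.3) and Rac2 (1.5) passed and Prtn3 (0.51) did not, against 1.44% of 7154 genes higher and 1.89% lower. The ratios without pseudocount were 3.05 (1.72 to 5.68) for Mpo, 3.27 (2.12 to 5.17) for Rac2 and 1.5 (0.935 to 2.44) for Prtn3. Both pre-HSC types came from the same strain and the same sort. The endothelial markers summed to 10.9 transcripts per cell in type I and 5.87 in type II, with Gja4 and Gja5 lower of 9 measured, and their part in the members' differences was not tested. The sets carry the same 3 numbers in both types. In transcripts per cell, Mpo had 0.375 in type I and 0.5 in type II in the first set, 0.118 and 0.64 in the second and 0.5 and 1.25 in the third, so type II was higher in 3 of 3. Rac2 was also higher in 3 of 3 and Prtn3 in 2 of 3. Without the second set of both types the log2 ratio of Mpo was 0.96, and without the first or the third it was 1.5 or 1.4. When a set was left out of 1 type alone, it was 0.73 without the second type I set (34 cells) and 0.90 without the third type II set (20 cells), and without that type I set Mpo was past 2-fold between type I and EHT cells, at 1.44. Rac2 passed whichever set or pair of sets was left out.

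YS HSPCs exceeded c-kit+CD31+ IAHC cells in Mpo and Rac2 at both stages. At E10 the log2 ratio was 1.5 for Mpo and for Rac2 and 0.46 for Prtn3, with 2.86% of 5915 genes higher and 5.51% lower in YS HSPCs. At E11 it was 1.7, 1.4 and 0.77, and 1.6% of 7149 genes were higher and 7.23% lower. Markers of other lineages moved between the same populations. The 10 erythroid markers summed to 2.50 transcripts per cell in YS HSPCs and 1.64 in IAHC cells at E10, and to 5.76 and 0.413 at E11, where 5 of 6 measured erythroid genes were higher with a median log2 ratio of 2.21. The endothelial sums were 0.447 and 5.38 at E10 and 1.54 and 9.83 at E11. Their part in the members' differences was not tested. The Prtn3 ratio without pseudocount was 1.43 (1.02 to 2.02) at E10 and 1.83 (1.27 to 2.60) at E11. Between the 2 sorts of E11 IAHC cells, c-kit+ against c-kit+CD31+, none passed (0.65, -0.15 and 0.74 for Mpo, Prtn3 and Rac2), and 0.885% of 7235 genes were higher and 1.13% lower in c-kit+ cells. No call of this paragraph changed when a set was left out, but E10 IAHC cells and E11 YS HSPCs each have 1 set, which could not be left out.

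Between stages, E11 cells were thinned to 3000 transcripts. No member passed 2-fold. In YS HSPCs the log2 ratio of E11 to E10 was -0.64 for Mpo, -0.37 for Prtn3 and -0.26 for Rac2, and the median of all 5451 genes was -0.31, with 7.3% lower and 1.05% higher. In c-kit+CD31+ IAHC cells it was -0.65, -0.82 and -0.21, and the median of 5787 genes was -0.24, with 1.88% lower and 0.449% higher. Without pseudocount the E11 to E10 ratio was 0.623 (0.453 to 0.842) for Mpo in YS HSPCs and 0.504 (0.344 to 0.743) for Prtn3 in IAHC cells. Those of Rac2 were 0.826 (0.637 to 1.06) and 0.847 (0.61 to 1.2), so the interval spanned 1 in both tissues. Prtn3 in YS HSPCs had 0.717 transcripts per thinned cell (0.494 to 1.01) at E11 and 0.957 (0.803 to 1.13) at E10. Mpo in IAHC cells had 0.338 (0.263 to 0.429) at E11 and 0.589 (0.426 to 0.793) at E10. In both cases the intervals overlapped.

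The balance between the 2 detected granule genes differed among populations. The share of Mpo in the summed Mpo and Prtn3 transcripts was 65.5% (60.5% to 70.2%) in E10 YS HSPCs, 64.9% (56.1% to 73.0%) in E11 YS HSPCs and 63.6% (54.2% to 72.2%) in E11 c-kit+ IAHC cells. Type II pre-HSCs had 51.1% (40.3% to 61.8%). The share was 47.9% (41% to 54.8%) in E11 c-kit+CD31+ IAHC cells, 47.8% (37.3% to 58.5%) in E10 EHT cells and 46.7% (36.3% to 57.4%) in E10 IAHC cells. Type I pre-HSCs had 34% (21.2% to 48.8%) and E11 EHT cells 20.8% (7.13% to 42.2%), from 50 and 24 transcripts. Mpo thus made up the larger part in YS HSPCs at both stages, whereas in aortic cells the interval included 50% or lay below it, apart from c-kit+ IAHC cells. In these, a set of 7 cells held 24 of the 75 Mpo transcripts, and without it the share was 58% (47% to 68.4%), an interval that included 50%.

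Single cells were then scored for how many of the 3 detected members they held. At least 1 was found in 91.5% (85.6% to 95.5%) of E10 YS HSPCs and 71.2% (59.4% to 81.2%) of E10 IAHC cells, against 39.8% of E10 EHT and 3.06% of E10 HE cells. At E11, 93.5% of YS HSPCs, 87.3% of type II and 61.3% of type I pre-HSCs, 72.8% of the 290 IAHC cells of both sorts, and 43.5% of EHT cells had at least 1. All 3 were found together in 38 E10 YS HSPCs (27.0%, 19.83% to 35.07%) and 9 E10 IAHC cells (12.3%, 5.80% to 22.1%). At E11, 16 YS HSPCs (34.8%), 10 type II pre-HSCs (18.2%), 2 type I pre-HSCs, 37 IAHC cells (12.8%) and 2 EHT cells held all 3. Thinning E11 cells to 3000 transcripts lowered the share with all 3 to 10.9% (3.62% to 23.6%) in YS HSPCs and 5.52% (3.19% to 8.81%) in IAHC cells, and the share with at least 1 to 87.0% and 60.7%. In type II pre-HSCs thinning left 3 cells with all 3 (5.45%, 1.14% to 15.1%) and 80% with at least 1, and in type I 46.8% with at least 1. In E11 EHT cells 23.9% (12.6% to 38.8%) kept at least 1, which lay below the 39.8% (32.8% to 47.1%) of E10 EHT cells, so that the order of the stages turned at equal depth, with overlapping intervals. At the deposited depths, cells with exactly 1 of the 3 were the largest class among IAHC cells of both stages, with 24 of 73 at E10 and 97 of 290 at E11. At equal depth this held at E10 and not at E11, where thinning left 114 cells with none and 100 with 1.

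**Figure D2:**
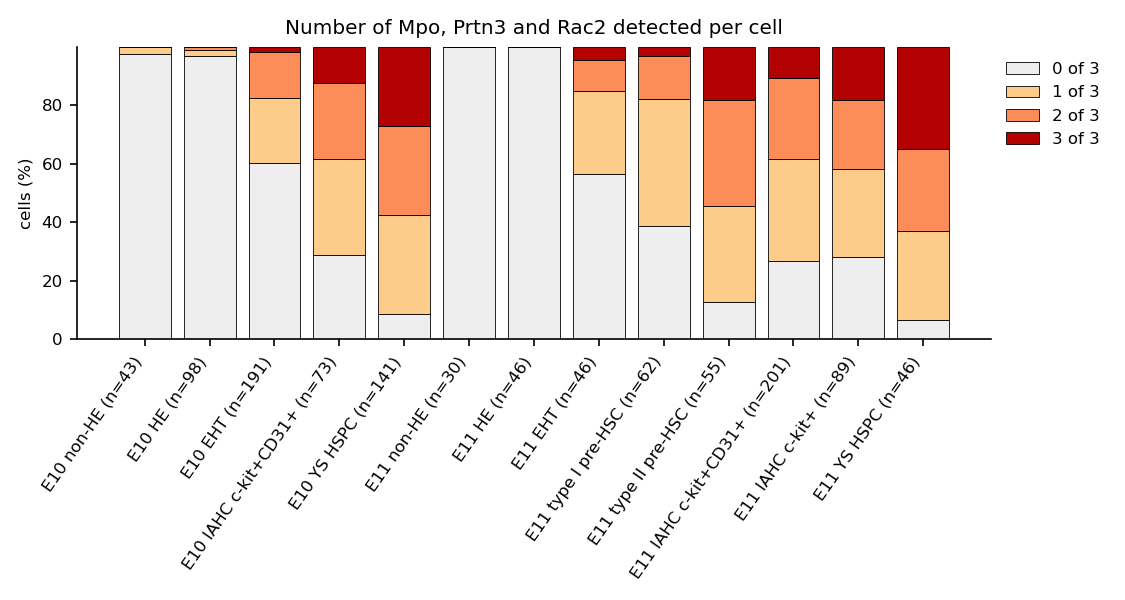
Share of cells (vertical axis, percent) with a transcript of 0, 1, 2 or 3 of Mpo, Prtn3 and Rac2 in each sorted population at the deposited depth, with the number of cells in brackets. Cells with at least 1 of the 3 made up 91.5% of E10 YS HSPCs and 3.06% of E10 HE cells.

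In YS HSPCs, Prtn3 was found with Mpo more often than without it. In E10 YS HSPCs, 42 of 77 cells with Mpo also had Prtn3 (54.5%, 42.8% to 65.9%), against 14 of 64 cells without Mpo (21.9%, 12.5% to 34%). In E11 YS HSPCs, 60.0% (40.6% to 77.3%) of 30 cells with Mpo and 18.8% (4.05% to 45.6%) of 16 cells without had Prtn3. The intervals stood apart at E10 and overlapped at E11. After thinning to 3000 transcripts the E11 values were 45% and 30.8%. In the 290 E11 IAHC cells, 49.5% (39.4% to 59.6%) of cells with Mpo and 30.2% (23.7% to 37.2%) of those without had Prtn3. Thinning gave 37.0% (26.0% to 49.1%) and 22.1% (16.8% to 28.2%), which overlapped. By sort, the thinned shares were 34.1% and 24.8% in c-kit+CD31+ cells and 41.4% and 15% in c-kit+ cells, with overlapping intervals in both. In E10 IAHC cells the shares were 50% and 40%, with wide overlap. Type II pre-HSCs went the other way, with 42.3% (23.4% to 63.1%) against 48.3% (29.4% to 67.5%), and after thinning 22.7% against 45.5%, the intervals overlapping in both.

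Rac2 was found in most YS HSPCs with or without Mpo, and in some aortic populations more often with it. In E10 YS HSPCs, Rac2 was found in 84.4% (74.4% to 91.7%) of cells with Mpo and 78.1% (66.0% to 87.5%) of those without. In E11 c-kit+ IAHC cells it was found in 80.0% (63.1% to 91.6%) and 44.4% (30.9% to 58.6%), and in E10 EHT cells in 42.4% (25.5% to 60.8%) and 17.1% (11.6% to 23.9%). At the deposited depths, the intervals stood apart among sorted populations in these 2. After thinning to 3000 transcripts, the shares in E11 c-kit+ IAHC cells were 69.0% (49.2% to 84.7%) and 36.7% (24.6% to 50.1%), which overlapped. In E10 IAHC cells it was 57.1% (37.2% to 75.5%) and 28.9% (16.4% to 44.3%), and in type II pre-HSCs 80.8% (60.6% to 93.4%) and 55.2% (35.7% to 73.6%). Cells of a population shared their sample and sort, so these shares are descriptions of the cells sequenced.

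**Figure D3:**
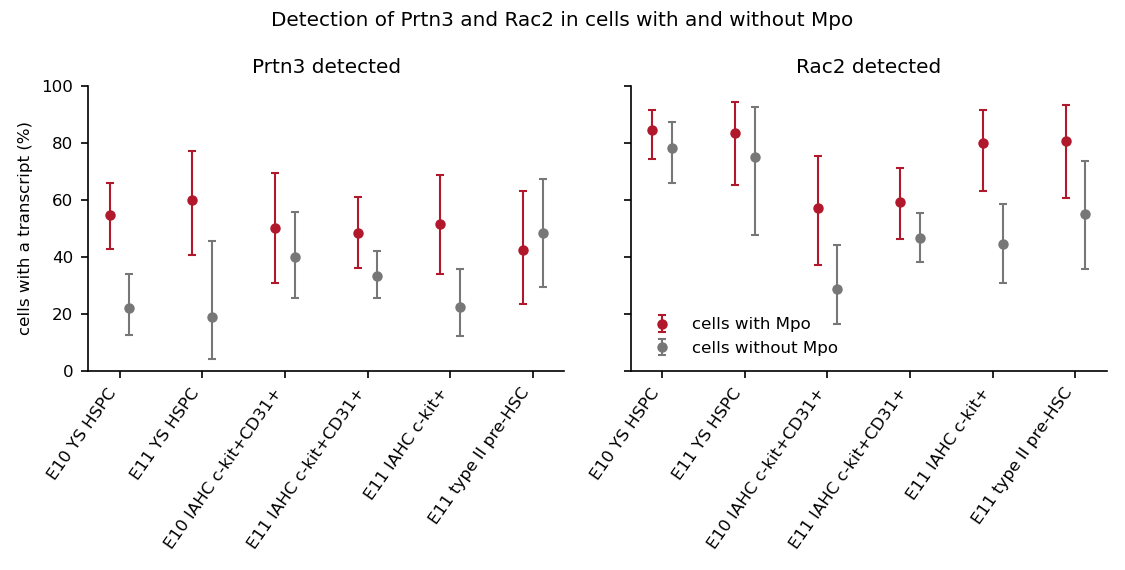
Share of cells with a transcript of Prtn3 (left) or Rac2 (right) among cells with Mpo (red) and without Mpo (grey), in percent, with exact Clopper-Pearson 95% intervals. For Prtn3 in E10 YS HSPCs the shares were 54.5% and 21.9%, and in type II pre-HSCs 42.3% and 48.3%.

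Markers of other lineages moved with the members. In the 290 E11 IAHC cells, the 10 endothelial markers summed to 6.23 transcripts per cell (5.75 to 6.73) in cells with Mpo and 9.84 (9.40 to 10.3) in cells without. The sums were 7.82 and 9.03 for cells with and without Prtn3, and 6.33 and 11.1 for Rac2. These cells pool both sorts, with sums of 9.83 in c-kit+CD31+ and 5.78 in c-kit+ cells. Mpo was detected in 32.8% and 39.3% of them, and the part of this mixture was not tested. The haematopoietic markers did not separate the same cells, with 12.5 and 12.4 by Mpo. In E10 IAHC cells the endothelial sums were 3.79 and 6.38 by Mpo, 4.31 and 6.22 by Prtn3, and 3.69 and 6.50 by Rac2. In type II pre-HSCs they were 4.65 and 6.97 by Mpo, and 4.68 and 8.33 by Rac2. Cells with Mpo or Rac2 thus had lower endothelial sums in each of these 3 populations. In E10 YS HSPCs, where the sums were low, they were higher in cells with Prtn3, at 0.661 (0.465 to 0.911) against 0.306 (0.200 to 0.448), and by Mpo they were 0.571 and 0.297, with overlapping intervals. The erythroid markers separated E10 IAHC cells by Rac2, with 3.03 transcripts per cell in cells with it and 0.727 in cells without.

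In E10 YS HSPCs the erythroid sums were lower in cells with a member. The 10 erythroid markers summed to 1.5 transcripts per cell (1.2 to 1.8) in cells with Mpo and 3.7 (3.2 to 4.2) in cells without. For Prtn3 the sums were 1.6 and 3.1, and for Rac2 2.3 and 3.4. Gata1, a regulator of erythroid and megakaryocytic genes, was detected in 20.8% (12.4% to 31.5%) of cells with Mpo and in 48.4% of cells without. Klf1, an erythroid regulator, was detected in 15.6% and 39.1%. Sfpi1, which encodes the myeloid factor PU.1, was found in 37.7% and 12.5% of them, and Plac8, a gene of myeloid progenitors, in 33.8% and 14.1%. Cells with Mpo among E10 YS HSPCs thus had Gata1 and Klf1 less often and Sfpi1 more often, the intervals standing apart. By Prtn3, Gata1 was found in 14.3% and 45.9% and Sfpi1 in 42.9% and 15.3%. By Rac2, Gata1 was found in 33.0% (24.6% to 42.4%) and 34.6% (17.2% to 55.7%). In type II pre-HSCs, Sfpi1 was found in 42.3% (23.4% to 63.1%) of cells with Mpo and 62.1% (42.3% to 79.3%) of cells without, with overlapping intervals. In E11 YS HSPCs the erythroid sums by Mpo were 5.60 (4.79 to 6.51) and 6.06 (4.92 to 7.40), which overlapped, and the haematopoietic sums were 10.1 and 5.19. Type I pre-HSCs went the other way from E10 YS HSPCs, with erythroid sums of 5.18 (3.92 to 6.71) in cells with Mpo and 3.20 (2.72 to 3.73) in cells without, and of 5.05 (4.13 to 6.10) and 2.78 (2.29 to 3.34) by Prtn3. By Rac2 the sums were 3.16 (2.41 to 4.06) and 3.72 (3.17 to 4.34), which overlapped.

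Markers of rarer lineages also moved with the members. In E10 YS HSPCs, the 7 mast cell and basophil markers summed to 0.273 transcripts per cell (0.169 to 0.417) in cells with Mpo and 0.0625 (0.017 to 0.160) in cells without. The macrophage sums were 0.482 (0.318 to 0.701) with Prtn3 and 0.188 (0.108 to 0.306) without, and 0.416 (0.284 to 0.587) and 0.172 (0.0858 to 0.308) by Mpo. Both lists were thus higher in cells with Mpo, although the macrophage intervals by Mpo overlapped. The 8 megakaryocyte markers were lower in cells with Prtn3, at 1.1 (0.83 to 1.4) against 1.9 (1.6 to 2.2). In E10 EHT cells they were higher with Mpo, at 0.636 (0.394 to 0.973) against 0.259 (0.186 to 0.352), and with Rac2, at 0.732 (0.494 to 1.04) against 0.213 (0.146 to 0.301), while by Prtn3 they were 0.289 and 0.333, with overlapping intervals. The 7 mesenchyme markers, not split by member, summed to 1.1 in E10 non-HE cells, 0.0567 in E10 YS HSPCs, 0.816 in E11 c-kit+CD31+ IAHC cells and 1.5 in E11 c-kit+ IAHC cells. A list of 11 genes of other aortic cells and of erythro-myeloid progenitors summed to 3.55 and 4.22 in these last populations. A filter applied here, which asked for more than 1 Gpr56 transcript and at most 2 of each of the 11 genes, kept 54 of 73 E10 IAHC cells, 140 of 201 c-kit+CD31+ and 47 of 89 c-kit+ cells of E11. It used down-sampled counts, so a cell that failed it need not be of another cell type. In the cells kept, Rac2 went from 3.24 to 4.26 per 10000 transcripts in c-kit+ cells, beyond its interval, while the other 8 member levels of IAHC cells stayed within theirs. The part of these lineages in the co-detection of the members was not tested.

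**Figure D4:**
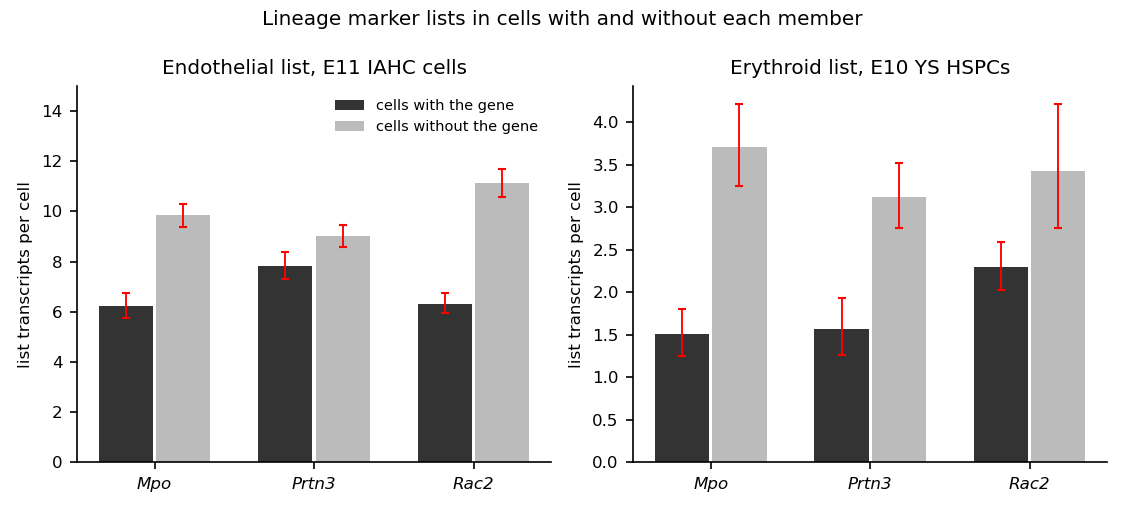
Summed transcripts per cell of the endothelial markers in E11 IAHC cells (left) and of the erythroid markers in E10 YS HSPCs (right), for cells with (dark) and without (light) each member, with exact Poisson 95% intervals. Endothelial sums by Mpo were 6.23 and 9.84, and erythroid sums 1.51 and 3.70.

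Of 16 genes of early granules and their cargo, 11 reached 0.1 per 3000 transcripts in a population. Calr, the chaperone that binds newly made myeloperoxidase, was the most abundant of them in YS HSPCs, at 4.82 and 2.41 per 3000 transcripts at E10 and E11, but had 2.93 in E10 HE cells, where Mpo had 0.0408. Srgn, the proteoglycan that packs granule proteins, had 0.567 in E10 YS HSPCs and 0.184 in E10 HE cells. From HE to EHT, 5 of the 9 early granule genes measured at E10 were higher (Mpo, Prtn3, Srgn, Lyz1 and Lyz2) and 1 lower (Serpinb1a). At E11 the same 5 of 7 were higher. Over all genes, 2.67% were higher and 4.87% lower at E10, and 6.77% and 8.03% at E11. Prtn3 at both stages and Mpo at E11 were at 0 in HE cells and so had to pass. Of the genes that are not members, 3 of 7 were higher and 1 lower at E10, and 3 of 5 were higher at E11. With the members, the list's median log2 ratio was 1.23 at E10 and 1.08 at E11, against 0.02 and 0 over all genes. At E10 that median was the value of Mpo itself, so it does not stand apart from the members. Lyz1 and Lyz2 are near-identical lysozyme genes, so their counts are uncertain. Without the 3 E11 EHT cells with macrophage markers, 4 of the 7 were higher at E11 (Mpo, Prtn3, Lyz1 and Lyz2), and the median was 1.1. From E10 IAHC cells to YS HSPCs, Mpo, Cst7 and Plac8 were higher and Lyz1 and Lyz2 lower, of 10 measured. Over all genes, 2.86% were higher and 5.51% lower there, and the list's median was 0.48 against -0.02 over all genes. From type I to type II pre-HSCs, Mpo and Serpinb1a were higher and none lower of 8, with a median of 0.27 against 0.00. Over all genes, 1.44% were higher and 1.89% lower there. The list went the other way in 2 comparisons with E11 EHT cells. Ctsc, Srgn, Lyz1 and Lyz2 were lower in type I pre-HSCs, with 0 of 7 higher and a median of -1.26 against -0.11 over all genes. Over all genes, 8.8% were lower and 3.32% higher there. The same 4 were lower in E11 c-kit+CD31+ IAHC cells, where Mpo alone was higher of 7, with a median of -1.23 against -0.06. In that comparison 8.9% of all genes were lower and 4.43% higher. All 3 macrophage markers measured (Cd68, Ctss and Lgals3) were lower in these comparisons too, with medians of -3.95 and -4.06. The 10 macrophage markers, of which C1qa and Mrc1 were at 0 in E11 EHT cells, summed to 4 transcripts per EHT cell and to 99 in 1 of them, against 0.161 in type I pre-HSCs and 0.179 in c-kit+CD31+ IAHC cells. The early granule sum reached 108 in 1 EHT cell. Without cells that had at least 4 macrophage markers, Ctsc alone was lower in both comparisons, and the medians were -0.81 and -0.62, so most of these calls rested on the 3 EHT cells. Of 12 genes of late granules, only S100a8 and S100a9 reached 0.1 per 3000 transcripts, in E10 IAHC cells alone, at 0.164 and 0.137.

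Of 12 myeloid transcription factors, 9 reached that level and Cebpa did not. Myb, which drives the proliferation of haematopoietic progenitors, went from 0.0102 per 3000 transcripts in E10 HE cells to 0.796 in EHT cells, 1.16 in IAHC cells and 1.25 in YS HSPCs. Sfpi1 had 0.0816, 0.691, 0.836 and 0.390, and Runx1, the factor required for the endothelial-to-haematopoietic transition, 0.245, 0.733, 0.616 and 0.468. Cebpb, a relative of Cebpa, had 0.204, 0.565, 0.384 and 0.170. Thus at E10 Mpo was at its highest in YS HSPCs, whereas Sfpi1 was at its highest in IAHC cells and Runx1 and Cebpb in EHT cells. From HE to EHT at E10, 4 of 8 factors were higher (Cebpb, Sfpi1, Myb and Runx1) and Klf4 lower, against 2.67% and 4.87% of all genes. The list's median was 0.99 against 0.02 over all genes. At E11 the same 4 and Gfi1 were higher of 8 and Klf4 lower, against 6.77% and 8.03%. Myb was at 0 in E11 HE cells and so had to pass. From E11 EHT to c-kit+CD31+ IAHC cells 0 of 8 were higher and Cebpb, Cebpg and Gfi1 lower, against 4.43% and 8.9%. The median there was -0.45 against -0.06, and macrophage markers were lower too, as given above. From E10 IAHC cells to YS HSPCs, 0 of 6 were higher and Gfi1 was lower, against 2.86% and 5.51% of all genes. The list's median log2 ratio was -0.59 against -0.02 over all genes.

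Among 8 receptors for myeloid growth factors, 5 reached 0.1 per 3000 transcripts. Csf2rb, the shared β chain of the GM-CSF, IL-3 and IL-5 receptors, had 0.241 in E10 YS HSPCs and 0.137 in E10 IAHC cells. Csf3r, the G-CSF receptor, had 0.191 and 0.164, Flt3, the FLT3 ligand receptor, 0.0496 and 0.0822, and Csf1r, the M-CSF receptor, 0.0426 and 0.123. None of the 3 receptors measured in that comparison passed 2-fold.

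Rac2 belongs to a list of 12 genes that includes those of the NADPH oxidase, of which 8 reached 0.1 per 3000 transcripts. Coro1a, an actin-binding protein of leukocytes, had 0.143 in E10 HE cells, 1.01 in EHT cells, 2.48 in IAHC cells and 1.71 in YS HSPCs. Rac1, the widely expressed relative of Rac2, had 1.8, 1.3, 1.6 and 1.5 in the same order, where Rac2 had 0.0408, 0.319, 0.699 and 2.11. Rac1 thus varied less among these populations than Rac2. From E10 IAHC cells to YS HSPCs, Rac2 was the one gene of 8 that passed 2-fold, as it was from type I to type II pre-HSCs and from E11 IAHC cells to YS HSPCs. The medians of the list were 0.26, 0.41 and 0.12, against -0.02, 0.00 and -0.08 over all genes.

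The genes most like Mpo and Rac2 were found by Pearson correlation of log2 levels over the 13 populations, among 5742 genes with at least 0.2 per 3000 transcripts in a population. Closest to Mpo were Unc119 (r = 0.989), Sfxn1 (0.985), Ptprcap (0.979), Nhp2 (0.978) and Tuba4a (0.976). Closest to Rac2 were Tuba4a (0.983), Nckap1l (0.981), Impa2 (0.974), Mpo (0.972) and Tspan32 (0.971). Prtn3 ranked 151st for Mpo, with r = 0.924. The 13 points shared depth within a stage, and strain within groups of populations, so these values are descriptions.

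In wIAHCs, c-kit+ clusters picked one by one from slices of wild-type C57BL/6 embryos, the members were at low levels. Of 109 libraries, 57 had at least 5000 transcripts and were used: 21 ventral and 7 dorsal at E10, and 17 ventral and 12 dorsal at E11, with 5099 to 115328 transcripts (median 12838). Each is a bulk sample, in which fewer cells of a type and less RNA per cell cannot be told apart. wIAHCs of the same embryo are not marked, so p-values measure the spread between wIAHCs. Levels are not compared with those of single cells, since the tables were normalised separately. At least 1 of Mpo, Prtn3 and Rac2 was found in 46 of 57 wIAHCs (80.7%) and all 3 in 20. Elane and Ctsg had 0 transcripts in all 57, which allows up to 5.26% of wIAHCs, and Cebpa had 1 transcript in each of 2 E10 ventral wIAHCs.

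Mpo ranged from 0 to 2.34 per 10000 transcripts in ventral wIAHCs of E10 (median 0) and 0 to 1.43 in dorsal ones (median 1.08), and at E11 from 0 to 3.88 in ventral (median 0) and 0 to 2.59 in dorsal ones (median 0). It was detected in 10 of 21, 5 of 7, 8 of 17 and 3 of 12. After thinning all wIAHCs to 4900 transcripts, Mpo was detected in 6, 4, 7 and 3 of them. The ventral shares were then 28.6% (11.3% to 52.2%) at E10 and 41.2% (18.4% to 67.1%) at E11, so their order turned, with overlapping intervals. All 4 groups overlapped.
Prtn3 ranged from 0 to 2.92 (median 0.417), 0 to 1.51 (0.615), 0 to 2.63 (0.861) and 0 to 2.59 (0.290), and was detected in 14, 6, 12 and 6 wIAHCs of these groups. Every group again included 0 and overlapped the others.
Rac2 ranged from 0 to 2.47 (median 0.425), 0 to 2.95 (0.712), 0 to 4.9 (1.63) and 0 to 5.20 (0), and was detected in 13, 5, 12 and 5. The median depths of these groups were 14538, 14063, 12838 and 8244 transcripts. After thinning all wIAHCs to 4900 transcripts, Rac2 was detected in 6 of 21, 1 of 7, 5 of 17 (29.4%, 10.3% to 56.0%) and 5 of 12 (41.7%, 15.2% to 72.3%), so the order of the E11 sides in shares detected turned, with overlapping intervals. E11 ventral wIAHCs had the highest median, and the highest single value was an E11 dorsal wIAHC.

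**Figure D5:**
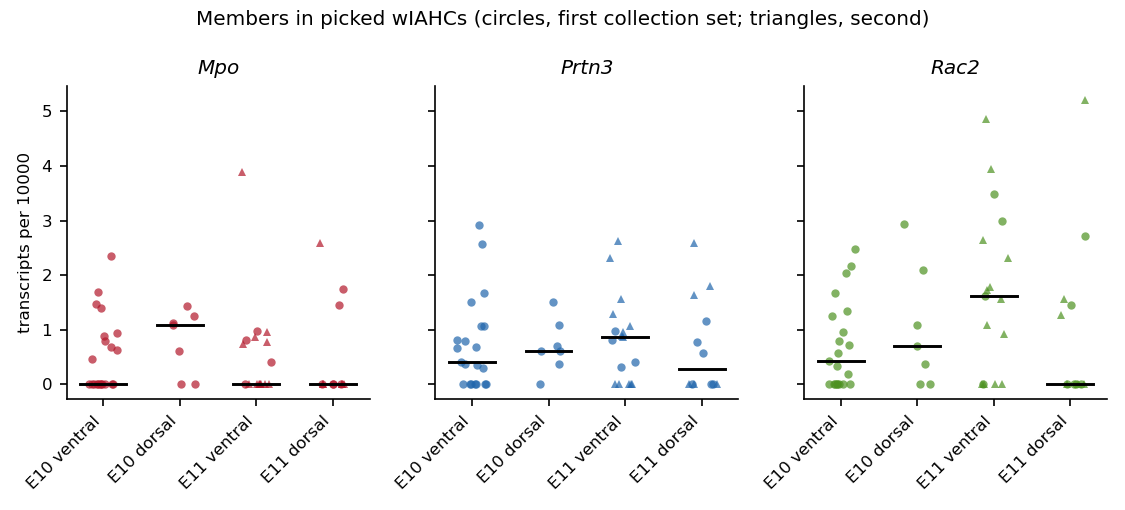
Level of Mpo, Prtn3 and Rac2 in each of 57 wIAHCs, in transcripts per 10000 (vertical axis), by stage and side of the aorta. Triangles are E11 wIAHCs whose column names mark a second collection set, circles are all others, and lines are medians. Circles of E10 and E11 need not share a collection. The median of Rac2 was 1.63 in E11 ventral wIAHCs and 0 in E11 dorsal wIAHCs, with overlapping points.

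The groups were tested with edgeR's quasi-likelihood test and Benjamini-Hochberg adjustment. None of the members passed edgeR's filter on low counts, which left 260 genes, so their values come from a fit of all 13627 genes with a transcript, adjusted over all of them. No member was called in any of 15 member comparisons, in this fit or in any of 7 settings, while 3 of the 15 had an unadjusted p under 0.05 by edgeR and 1 by DESeq2. Between 0.00734% and 2.17% of all genes were called in the same comparisons. Among the 260 genes that the filter left, 31.2% were called for stage in ventral and 10% in dorsal wIAHCs, and 0% for side or for the interaction. All 3 low p-values were of Rac2.

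From E10 to E11 in ventral wIAHCs, the log2 change of Rac2 was 0.75 ± 0.36 (SE, edgeR adjusted p = 0.311). The adjusted p ranged from 0.185 to 0.436 over the settings, and DESeq2 gave an unadjusted p of 0.0282. Mpo had -0.54 ± 0.43 (edgeR adjusted p = 0.552) and Prtn3 -0.26 ± 0.39 (0.781). Of all genes, 2.17% were called. Collection sets of E11 wIAHCs were read from column names, which do not say what a set was. In the first set of E11 ventral wIAHCs Rac2 averaged 2.03 per 10000 transcripts (n = 4) and in the second 1.6 (n = 13). Names of E10 wIAHCs lacked the mark of the second set, which does not tell whether they were collected with the first.

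In dorsal wIAHCs the change from E10 to E11 was -1.10 ± 0.67 for Mpo (edgeR adjusted p = 0.536), -0.17 ± 0.69 for Prtn3 (1.00) and -0.77 ± 0.58 for Rac2 (0.599), with 0.704% of genes called. With DESeq2 the values were -0.36 for Mpo, 0.51 for Prtn3 and 0.07 for Rac2, and Prtn3 was also positive, at 0.18, with at least 10000 transcripts, so the signs of Prtn3 and Rac2 depended on these choices. Between sides at E10, ventral minus dorsal was -0.27 ± 0.50 for Mpo, 0.59 ± 0.55 for Prtn3 and -0.48 ± 0.46 for Rac2 (edgeR adjusted p from 0.893 to 0.987), with 0.022% of genes called. At E11 it was 0.30 ± 0.64 for Mpo, 0.49 ± 0.58 for Prtn3 and 1.04 ± 0.51 for Rac2 (edgeR adjusted p = 0.517), where the median of all genes was 0.24 and 0.00734% were called. Mpo was negative there in 2 of the 7 settings, down to -0.20. The difference between the stage changes of the 2 sides was 1.51 ± 0.69 for Rac2 (edgeR adjusted p = 0.696), with a median of 0.17 over all genes and 0.0147% called. Thus none of these comparisons held after adjustment.

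Erythroid markers moved with stage in the same wIAHCs. Their sum had a median of 1.7 per 10000 transcripts in E10 ventral and 3.01 in E10 dorsal wIAHCs, against 30.3 and 19 at E11, with single wIAHCs up to 2695. In the same order, the endothelial medians were 7.69 and 7.59, against 9.90 and 15.6 at E11. The mesenchyme medians were 0.337 and 0.174, against 1.93 and 2.45, and the megakaryocyte medians 1.33 and 1.82, against 1.28 and 0. The part of these 3 lists in the members' levels was not tested. The 10 macrophage markers had medians of 0 to 0.821, and C1qa, C1qb, Emr1, Ctss and Lgals3 were at 0 in all 57. The part of erythroid RNA in the members' levels was not tested beyond leaving out the 4 wIAHCs with over 5% haemoglobin transcripts, which changed no call.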

How the data were processed

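Single cells and wIAHCs were measured by CEL-Seq. Both kinds of file were deposited as estimated counts of transcripts, derived by the authors from UMIs (256 sequences of length 4). For single cells the authors down-sampled them to a common total per cell and added 0.1, which was subtracted again here. For wIAHCs they were corrected for UMI collisions and not scaled, and were rounded to whole numbers for testing. The submitters' processing notes name BWA 0.6.2-r126 and the build mm10. The side of each wIAHC, the pre-HSC type and the sorted set came from column names, and 0 columns were of no sample.

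Members and gene lists were chosen with earlier results of these data known. The genes named were the members, from each list up to 4 genes with the highest mean in YS HSPCs among those with at least 0.1 per 3000 transcripts, and the 5 genes most like Mpo and Rac2. Genes that passed 2-fold in a list, and the regulators set beside Mpo in YS HSPCs, were named as well, after their values were seen. A gene that this rule names is not reported here. Other lists were of erythroid, endothelial, macrophage and haematopoietic markers, and of megakaryocyte, mast cell and mesenchyme markers.

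Levels are means with exact Poisson or Clopper-Pearson 95% intervals, and a count of 0 was read as up to 3. Populations were compared with a pseudocount of 0.1 and a 2-fold limit. With UMIs counted at the 3′ end, counts do not grow with transcript length. No doublet caller was run, because single cells were dispensed into plate wells and every column of a stage has 1 total. wIAHCs with at least 5000 transcripts were compared with edgeR 4.0.16 (TMM, filterByExpr, robust quasi-likelihood fit, adjusted p 0.05), with 4 groups in 1 fit, and with DESeq2 1.42.0 as an alternative. The tests were tried on simulated data. Python 3.11.15, numpy 2.4.6, pandas 2.3.3, scipy 1.17.1, matplotlib 3.10.9 and R 4.3.3 were used. Alternatives were other pseudocounts, level and fold limits, thinned depth, a filter on IAHC cells, cells without macrophage markers, left-out sets, other wIAHC depth limits, no low-count filter, uncorrected UMIs, haemoglobin-rich wIAHCs left out and the collection set as a term. The deposited IAHC cells were filtered here, after the study's description, on Gpr56 and 11 genes of other cells. For the 2-fold comparisons, leaving out macrophage-marker cells, IAHC cells that failed this filter and sorted sets was chosen after seeing the data, as were the share of Mpo without single sets and the gene lists without macrophage-marker cells.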

Additional observations from a re-analysis of the deposited data

Results flagged for a closer look

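Of the 109 wIAHC libraries, the 52 with fewer than 5000 transcripts entered none of the main comparisons and nevertheless held transcripts of the members. Those with at least 2000 transcripts entered an alternative setting only. Rac2 had 4 transcripts in 3 of them, which is 0.400 per 10000 transcripts (exact Poisson 95% interval 0.109 to 1.02). So few transcripts do not set Rac2 apart from the 3 that a count of 0 allows. Mpo and Prtn3 had 3 transcripts each and Cebpa had 1, while Elane and Ctsg had 0.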

How the results depend on the processing

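The 15 single-cell member differences past 2-fold were 17 with a pseudocount of 0.05, 5 with 0.5 and 2 with a 4-fold limit. With 0.05, 1 member passed from EHT to type I. With 0.5, 0 passed from HE to EHT at E10 and E11 and from EHT to IAHC cells at E10 and E11, and 1 from type I to type II. With 4-fold, 0 passed in E10 EHT against HE, IAHC against EHT and YS HSPCs against IAHC cells at both stages, and type II against type I. Of the 15, 4 had 0 transcripts in the lower population. Leaving out single sets, or the second set of both pre-HSC types (chosen after seeing the data), changed 6 calls for single sets. There were then 2 members in E10 EHT against HE cells without the first HE set, 1 in E10 IAHC against EHT cells without the second EHT set and 3 without the third, 1 in type I pre-HSCs against EHT cells, and 1 in type II against type I pre-HSCs. Requiring 2 transcripts of each gene lowered the share of cells with all 3 to 11.3% in E10 YS HSPCs, 2.74% in E10 IAHC, 6.52% in E11 YS HSPCs and 1.38% in E11 IAHC cells, and thinning gave 10.9% and 5.52% at E11. Of 98 single-cell levels under other settings, 12 moved beyond their interval, 9 of them when a set was left out, of which the type I set of 34 cells moved Mpo to 0.929 and Prtn3 to 1.64 per 10000 transcripts.

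In wIAHCs, edgeR called 81 and 26 of 260 genes for stage in ventral and dorsal wIAHCs and 0 for side or interaction. Without the low-count filter it called 296 and 96, then 3, 1 and 2 of 13627. With at least 10000 transcripts it called 131 and 4. All 90 other member values kept their side of the threshold, although some signs changed. Leaving out each wIAHC in turn was not run, because the smallest group had 7. No paired analysis was possible because replicate numbers of the wIAHCs are not shared between groups. The causes were not tested. The 3 detected members had means of at most 2.70 transcripts per cell in any population. Single cells nevertheless held up to 15, and 1 E10 dorsal wIAHC held 24 of Rac2.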
